A study of Mus musculus with 4 samples.

Results

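Oligodendrocyte precursors that had turned on Pdgfra or Sox10 were examined in cortical cells of E16.5 mouse embryos on the C57BL/6 background, with 2 libraries labelled COP1 KO and 2 labelled HET. A cell barcode was a member if it held 500 or more genes, at least 1 UMI (unique molecular identifier, a tag that marks a single captured transcript) of Olig1 or Olig2, at least 1 UMI of Pdgfra or Sox10, fewer than 100 UMIs of Ttr, and no UMI of Neurod6 or Col1a1. The members were thus selected on the measured counts of these 7 genes, whose values are given as a description and not tested. The rule took 125 of the 19015 barcodes with 500 or more genes. There were 39 members in COP1 KO library 1 and 58 in COP1 KO library 2, against 12 in HET library 1 and 16 in HET library 2. The titles of the COP1 KO samples call them CKO, and the labels define neither HET nor the allele, the driver or the cells in which COP1 was removed. The cortex of each sample was taken apart with papain, loaded on the 10x Chromium 3′ v2 system, which tags the 3′ ends of transcripts, and sequenced on 1 HiSeq4000 lane. The labels do not say whether the libraries of a genotype came from separate embryos, so p-values measure only the spread between libraries, which may be technical.

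Oligodendrocyte precursors arise from neural progenitors that switch on Olig1 and Olig2, paired helix-loop-helix transcription factors. Commitment follows when the cell gains Sox10, the transcription factor that holds the lineage, and Pdgfra, the receptor through which PDGF drives the precursors to divide and migrate. Committed precursors carry proteoglycans such as Cspg4 (NG2), and only later, mostly after birth in the mouse cortex, turn on Gpr17, Bcas1, Myrf and the myelin genes. COP1, whose gene is listed under its older symbol Rfwd2, brings proteins such as JUN and members of the ETV family to a ubiquitin ligase, after which they are degraded.

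The members carried the markers of their name. Genes that the rule did not use stood far above all other kept cells in every library: Serpine2, a secreted protease inhibitor, was 22.9 to 53.4 times higher, the protocadherin Pcdh15 22.6 to 51.6 times, the ubiquitin ligase Lnx1 21.98 to 54.7 times and Bcan, the proteoglycan brevican, 13.1 to 40.1 times. These ratios describe the members and are not tested. Marker lists of other cells are given in CPM (counts scaled to the summed counts of a library's members). Those of microglia, vessels, fibroblasts and the choroid plexus were low. The microglial list summed to 16.2 and 21.5 CPM in COP1 KO members and to 26.9 and 9.35 CPM in HET members, with 11 to 13 of its 14 genes at 0, and the vessel, fibroblast and choroid plexus lists summed to at most 20.3 CPM in any library. The astrocyte list summed to 1831 and 2106 CPM in COP1 KO members and to 1237 and 2075 CPM in HET members, above the other kept cells of each library (1177 and 1239 CPM in COP1 KO and 872 and 1037 CPM in HET). The radial glia list, which shares Fabp7 with the precursor list, was also higher, with 16935 and 19419 CPM in COP1 KO members and 15634 and 18114 CPM in HET members, against 4625 and 4703 CPM in other COP1 KO cells and 3680 and 4246 CPM in other HET cells. The list of pan-neuronal genes summed to 1941 and 1884 CPM in COP1 KO members and to 4813 and 3000 CPM in HET members, below the other kept cells of each library.

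The deposited totals were 28049007 and 28988265 counts in the COP1 KO libraries and 28327090 and 28071382 in the HET libraries. The members' summed UMIs were fewer, 246295 and 417791 in COP1 KO and 74388 and 106990 in HET. The limit that a count of 0 allows, 3 counts, therefore stood for 12.2 and 7.18 CPM in COP1 KO members and for 40.3 and 28.04 CPM in HET members. The median member held 5532 and 6722 UMIs in COP1 KO and 4362 and 5304 UMIs in HET.

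In each HET library a single deep barcode with neuronal transcripts carried much of the sum. In HET library 1 a barcode of 21950 UMIs held 29.5% of all member UMIs, and in HET library 2 a barcode of 13788 UMIs held 12.9%. The deepest COP1 KO members held 5.03% and 4.08%. The list of pan-neuronal genes took 1.02% and 0.994% of the counts of these HET barcodes, where the median member lay between 0.149% and 0.242% in the 4 libraries and the median cell with 2 or more Neurod6 UMIs between 1.21% and 1.28%. Their doublet scores, 0.126 and 0.123, were under the limit of 0.25. Results that rest on them are also given without the members at or above 0.5% neuronal counts, which were 1 and 0 in COP1 KO and 1 and 2 in HET.

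Committed precursors made up a larger share of the COP1 KO libraries. They were 0.7395% (0.526 to 1.01) and 1.21% (0.923 to 1.57) of kept cells in the COP1 KO libraries, against 0.262% (0.135 to 0.457) and 0.366% (0.209 to 0.593) in the HET libraries, with exact 95% intervals in parentheses. Both COP1 KO libraries lay above both HET libraries, with means of 0.977 ± 0.335% in COP1 KO and 0.314 ± 0.0736% in HET (SD, n = 2 each). The ratio was 3.11, and the exact two-sided permutation p was 0.333, the smallest that 2 libraries against 2 can give. After every barcode was thinned to 2000 UMIs the shares were 0.506% and 0.925% in COP1 KO and 0.262% and 0.343% in HET, a ratio of 2.37. The ratio was 2.59 when Sox10 itself was needed and 3.03 when Pdgfra was needed. Without COP1 KO library 2 it was 2.36, and without COP1 KO library 1 it was 3.87. Intervals cover counting error only.

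These genes were also seen in cells that should lack them, and there too more often in COP1 KO. Among cells with 2 or more UMIs of Neurod6, a gene of cortical excitatory neurons, 0.297% and 0.156% held an Olig gene together with Pdgfra or Sox10 in COP1 KO, against 0.0374% and 0.122% in HET. In each library this was under the members' share. An Olig gene alone was seen in 2.46% of such COP1 KO cells and 0.842% of such HET cells. The part of free RNA in the members' share was not tested. Of 167 kept barcodes with an Olig gene and Pdgfra or Sox10, 40 were left out for Neurod6, 23 of them for a single UMI, 3 for Col1a1 and 0 for Ttr.

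**Figure D1:**
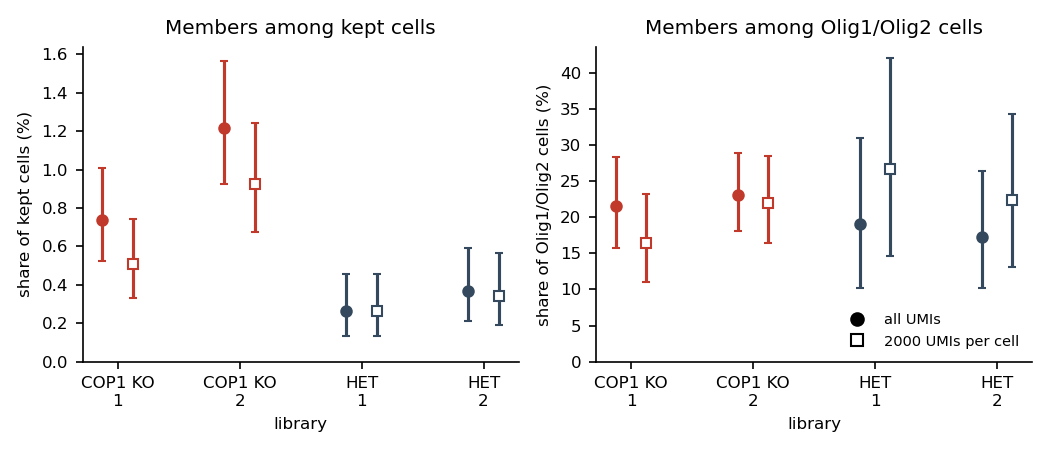
Share of members per library, as a percentage of kept cells (left) and of cells with Olig1 or Olig2 (right); circles use all UMIs, squares 2000 UMIs per cell, and bars are exact 95% intervals. In the left panel both COP1 KO libraries (0.739% and 1.21%) lie above both HET libraries (0.262% and 0.366%), and in the right panel the order of the genotypes turns round after thinning.

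Cells with Olig1 or Olig2 that lacked Pdgfra and Sox10 but met every other part of the rule, called Olig-only cells here, were also a larger share of the COP1 KO libraries. They numbered 142 and 193 in COP1 KO and 51 and 77 in HET, which was 3.37 ± 0.952% of kept cells in COP1 KO and 1.44 ± 0.458% in HET, a ratio of 2.34. Members were 21.5% and 23.1% of all Olig cells in COP1 KO and 19.05% and 17.2% in HET, with means of 22.3 ± 1.103% in COP1 KO and 18.1 ± 1.303% in HET (SD, n = 2 each). The ratio of 1.23 had an exact permutation p of 0.333. It turned round to 0.784 at 2000 UMIs per cell, where members were 19.2% of COP1 KO Olig cells and 24.5% of HET Olig cells, so no difference in the committed fraction was established.

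The genes that chose the members were not equally strong in both genotypes. Pdgfra (chr5:75151322-75198206, GRCm38) stood at 252 and 292 CPM in COP1 KO members and 712 and 523 CPM in HET members. Sox10 (chr15:79154913-79164490) stood at 171 and 182 CPM in COP1 KO and 430.2 and 243 CPM in HET. Both genes were lower in each COP1 KO library than in either HET library. Olig1 (chr16:91269769-91271939) had 1803 and 1932 CPM in COP1 KO and 2299 and 2365 CPM in HET, again lower in COP1 KO, while its neighbour Olig2 (chr16:91225550-91228677) had 869 and 625 CPM in COP1 KO and 618 and 804 CPM in HET and overlapped between the genotypes.

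Of the members, 15 of 39 and 32 of 58 held both Pdgfra and Sox10 in COP1 KO, against 10 of 12 and 8 of 16 in HET. Pdgfra without Sox10 was seen in 19 and 18 COP1 KO members and in 2 and 5 HET members, and Sox10 without Pdgfra in 5 and 8 COP1 KO members and in 0 and 3 HET members. All 3 shares overlapped between the genotypes. At the edge of the rule, 25 members held a single UMI of the pair Pdgfra and Sox10, 10 and 12 of them in COP1 KO and 1 and 2 in HET, while 38 members held 5 or more UMIs of each pair. No member had under 1000 genes.

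Other genes of the precursor state were mostly lower in COP1 KO members, although few differences passed the test across genes. Of 30 precursor genes outside the rule, 28 had a count in members, and 27 of these had a lower mean in COP1 KO. The libraries of the genotypes did not overlap for 23 of them, all lower in COP1 KO. Over all 4150 genes tested, 24% were lower in COP1 KO without overlap and 27% higher. Among the 22 precursor genes that passed the filter on low counts, 21 were lower, 2 fell (Scrg1 and Cntn1), and the median log2 change was -0.80, against 0.02 over all genes tested. Counts over the filtered genes are a description, since the filter keeps genes that are high in either genotype.

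Scrg1 (chr8:57455882-57479360), a small secreted protein, had 154 and 103 CPM in COP1 KO members and 484 and 439 CPM in HET members. Both COP1 KO libraries lay below both HET libraries, and the log2 change was -1.898 ± 0.27 (SE; adjusted p = 0.0472). Cntn1 (chr15:92051152-92341967), contactin 1, a cell adhesion molecule anchored to the membrane, had 203 and 184 CPM in COP1 KO and 578 and 486 CPM in HET, again without overlap. Its log2 change was -1.47 ± 0.22 (SE; adjusted p = 0.0485). Without the members rich in neuronal counts the changes were -2.18 for Scrg1 and -1.76 for Cntn1, with adjusted p-values of 0.0541 and 0.0541, so neither call was kept.

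Several precursor genes differed by more than these and did not pass. Matn4, the matrix protein matrilin 4, had 8.12 and 7.18 CPM in COP1 KO members and 242 and 74.8 CPM in HET members, a log2 change of -4.21 ± 0.75 (SE; adjusted p = 0.0762). Luzp2, a leucine-zipper protein, had 24.4 and 33.5 CPM in COP1 KO and 363 and 112 CPM in HET (log2 change -2.89 ± 0.60, adjusted p = 0.0998). C1ql1, a secreted C1q-like protein, had 56.8 and 35.9 CPM in COP1 KO and 255 and 140.2 CPM in HET (log2 change -2.11 ± 0.44, adjusted p = 0.101). In all 3 the lower HET library stood above the higher COP1 KO library.

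Gpr17, a receptor that marks precursors about to differentiate, was seen in few COP1 KO members. It was detected in 6 of 39 and 3 of 58 COP1 KO members and in 7 of 12 and 5 of 16 HET members, and its log2 change was -2.85 ± 0.68 (SE; adjusted p = 0.107). At 2000 UMIs per cell the shares were 7.89% and 0% in COP1 KO, where 0 of 58 cells allows a share of up to 6.16% (exact interval), and 33.3% and 12.5% in HET. No cell with 2 or more Neurod6 UMIs held a Gpr17 UMI at that depth. Gpr17 lies within the span of Lims2 on chromosome 18, and the use of strand in the counting is not given in the sources used here, so reads of the pair may be shared; Lims2 had 16.2 and 4.79 CPM in COP1 KO and 175 and 37.4 CPM in HET. Cspg4 was seen in 23.1% and 27.6% of COP1 KO members and in 50% and 43.8% of HET members, with 60.9 and 57.4 CPM in COP1 KO and 121 and 65.4 CPM in HET (log2 change -0.61 ± 0.43, adjusted p = 0.544).

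The remaining precursor genes showed smaller differences, mostly in the same direction. The proteoglycan Cspg5 had 447 and 407 CPM in COP1 KO members and 968 and 738 CPM in HET members (log2 change -1.01 ± 0.22, adjusted p = 0.106), and Bcan had 365 and 452 CPM in COP1 KO and 726 and 719.7 CPM in HET (-0.83 ± 0.21, adjusted p = 0.115). Lhfpl3, a tetraspan membrane protein, had 134 and 220.2 CPM in COP1 KO and 605 and 374 CPM in HET (-1.403 ± 0.33, adjusted p = 0.106). None of these 3 overlapped. For Kcnip3, Vcan, Sox8, Ednrb, Sapcd2, Nkx2-2, Pcdh15, Ptprz1 and Fabp7 the changes lay between -1.31 and -0.37, with adjusted p-values of 0.187 or more, and of these Pcdh15 overlapped between the genotypes. Serpine2 and Sox6 changed by -0.16 and -0.07 with overlapping libraries. Ncan, the proteoglycan neurocan, was the only gene of the list with a higher mean in COP1 KO, with 487 and 548 CPM in COP1 KO and 296 and 533 CPM in HET (log2 change 0.27). Dscam, Xylt1 and Tnr missed the filter, at 24.98, 36.3 and 27.7 CPM on average in COP1 KO and 79.2, 61.6 and 51.7 CPM in HET, as did Pllp and Cacng4, at 7.18 and 6.45 CPM in COP1 KO and 29.5 and 11.4 CPM in HET. Nkx6-2 and Neu4 had no count in members.

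**Figure D2:**
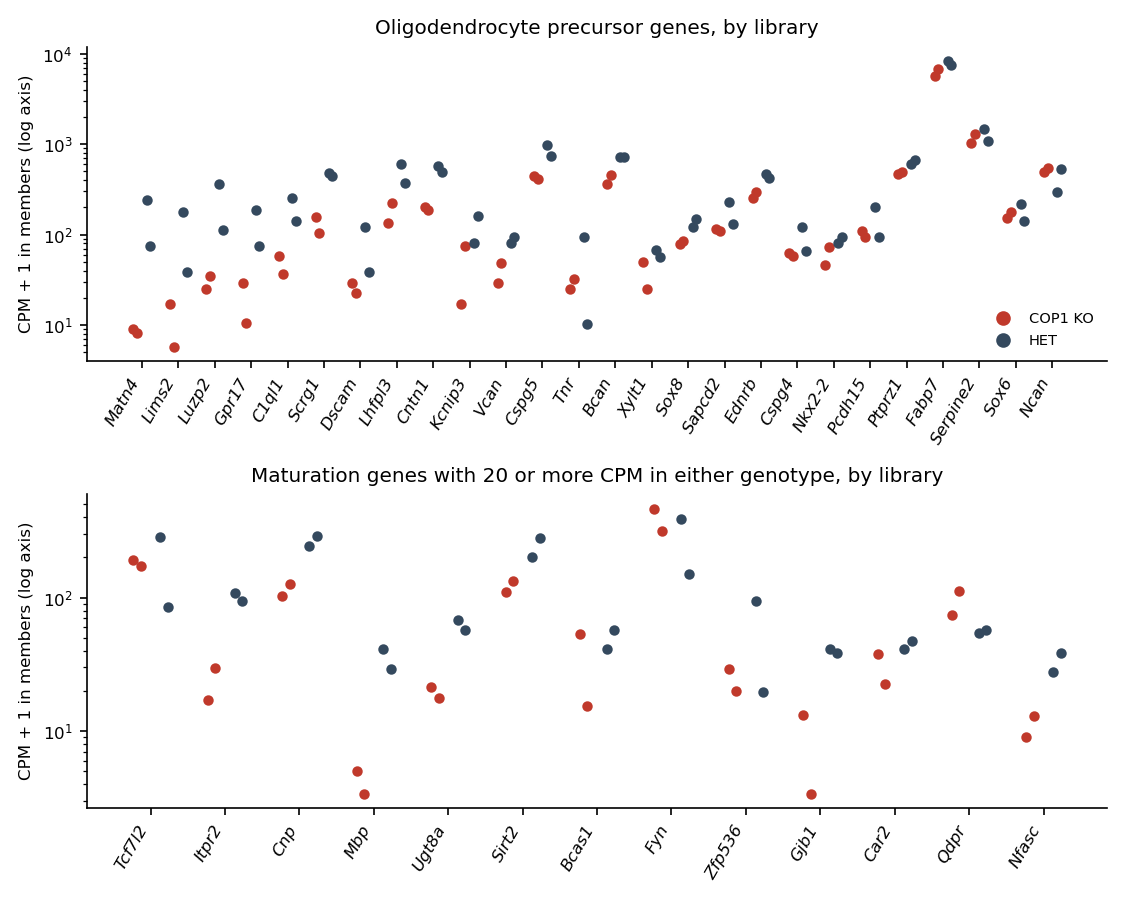
Each precursor gene with 50 or more CPM in either genotype (top) and each maturation gene with 20 or more CPM in either genotype (bottom), as CPM + 1 in the summed members of each library on a log axis, COP1 KO left and HET right of each tick. Most precursor genes sit lower in both COP1 KO libraries, for example Matn4 (8.12 and 7.18 CPM in COP1 KO and 242 and 74.8 CPM in HET), while Serpine2, Sox6, Ncan, Pcdh15 and Tnr overlap.

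The difference was also present in the typical member. The precursor list summed to 10021 and 11635 CPM in COP1 KO members and to 17167 and 14478 CPM in HET members. The median member, which weighs deep and shallow barcodes alike, held 9886 and 11094 CPM of the list in COP1 KO and 21869 and 20038 CPM in HET. Among members with no UMI of Mki67, Top2a or Cdk1, transcripts of dividing cells, the list summed to 11761 and 11297 CPM in COP1 KO and to 17213 and 19256 CPM in HET. Both groups of libraries stayed apart in each of these 3 measures. They overlapped among members with a UMI of Mki67, Top2a or Cdk1, at 9472 and 11831 CPM in COP1 KO and 16945 and 11488 CPM in HET, and among members with Pdgfra without Sox10, at 8928 and 13809 CPM in COP1 KO and 14107 and 9976 CPM in HET. In Olig-only cells the sums were 8898 and 8992 CPM in COP1 KO and 15640 and 10171 CPM in HET. All 125 members held 2 or more UMIs of the list.

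A single gene carried much of these sums. Fabp7, a fatty acid binding protein that radial glia also use, made up 56.2 and 58.03% of the list's counts in COP1 KO members and 48.2 and 51.97% in HET members, and 73.1 and 72.9% in COP1 KO Olig-only cells and 83.6 and 78.9% in HET Olig-only cells. With Fabp7 left out, a choice made after seeing the data, the list summed to 4389 and 4883 CPM in COP1 KO members and 8899 and 6954 CPM in HET members, and the median member held 4718 and 4740 CPM in COP1 KO and 11142 and 7580 CPM in HET. The libraries of the genotypes stayed apart in both. Olig-only cells then overlapped, at 2396 and 2440 CPM in COP1 KO and 2559 and 2148 CPM in HET.

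**Figure D3:**
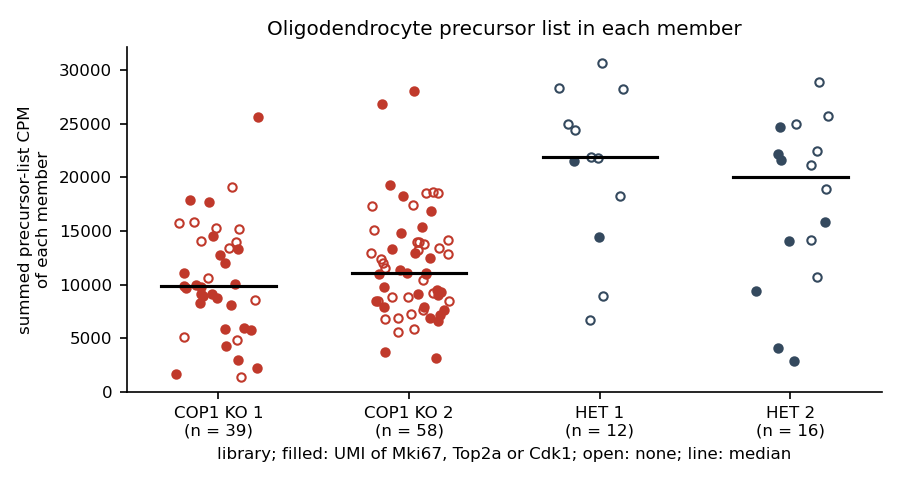
Summed CPM of the 30 precursor genes in each single member, by library, with the library median as a line; filled points hold a UMI of Mki67, Top2a or Cdk1 and open points hold none. The COP1 KO medians (9886 and 11094 CPM) lie below the HET medians (21869 and 20038 CPM), and single cells overlap; Fabp7 makes up 56.2 and 58.03% of the summed list in COP1 KO and 48.2 and 51.97% in HET.

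The members were early in the lineage in both genotypes. Of 32 genes of oligodendrocyte maturation, 12 had no count in any member, among them Myrf, a transcription factor needed for myelination, and the myelin genes Mag, Mog, Mobp, Mal and Opalin. Mbp, myelin basic protein, had 1 and 1 counts in COP1 KO members and 3 and 3 in HET members.

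None of the 6 maturation genes tested passed in edgeR, with 3 at an unadjusted p under 0.05, against 689 of all 4150 genes tested. Cnp, an enzyme of oligodendrocytes, had 102 and 124 CPM in COP1 KO members and 242 and 289.7 CPM in HET members (log2 change -1.24 ± 0.27, SE; adjusted p = 0.106). Itpr2, a calcium channel of the endoplasmic reticulum, had 16.2 and 28.7 CPM in COP1 KO and 108 and 93.5 CPM in HET (-2.05 ± 0.49, adjusted p = 0.106). Sirt2, a deacetylase, had 109.6 and 132 CPM in COP1 KO and 202 and 280.4 CPM in HET (-1.02 ± 0.28, adjusted p = 0.144). None of these 3 overlapped between the genotypes. Ugt8a, Gjb1, Nfasc and Car2 were also lower without overlap but missed the filter. They averaged 18.5, 7.29, 10.04 and 29.04 CPM in COP1 KO and 61.6, 38.9, 32.1 and 43.5 CPM in HET. These levels rest on few counts, since 3 counts stood for 40.3 and 28.04 CPM in the HET libraries. For Car2 a single barcode held 66.7% and 60% of the HET counts. Qdpr had 73.1 and 110.1 CPM in COP1 KO and 53.8 and 56.1 CPM in HET (0.76 ± 0.45, adjusted p = 0.463), higher in COP1 KO without overlap. Tcf7l2, Fyn, Bcas1 and Zfp536 overlapped. Of the 20 genes with a count, 14 had a lower mean in COP1 KO and 6 a higher one. The libraries did not overlap for 8 of the lower and 2 of the higher genes. Over all 4150 genes tested, 24% were lower and 27% higher without overlap.

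Genes of the stage before commitment showed no common direction. Of 16 such genes 10 had a lower mean in COP1 KO members and 6 a higher one, and 0 passed in edgeR. An unadjusted p under 0.05 was reached by 4 of 14 tested, against 689 of 4150 over all genes. The cyclin Ccnd1 had 589 and 541 CPM in COP1 KO and 215 and 393 CPM in HET (log2 change 0.83 ± 0.27, adjusted p = 0.199), and Ccnd2 had 1490.1 and 1036 CPM in COP1 KO and 215 and 953 CPM in HET (1.04 ± 0.48, adjusted p = 0.326), both higher in COP1 KO without overlap. Notch1 was also higher without overlap (0.24 ± 0.35), and Sox9 and the Notch ligand Dll1 were lower without overlap, with changes of -0.72 ± 0.30 and -0.88 ± 0.38. Dll3, Hes6, Btg2, Sox4, Sox11, Rfx4, Gadd45g, Hes5 and Gsx2 overlapped between the genotypes, and the HET libraries differed widely in several of them. Dll3, a ligand-like protein of the Notch pathway, had 114 and 88.6 CPM in COP1 KO and 26.9 and 299 CPM in HET.

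Across all 4150 genes tested in members, 14 (0.337%) passed an adjusted p of 0.05 in COP1 KO against HET, of which 1 rose (0.0241%) and 13 fell (0.313%). The rising gene was Vim (chr2:13574311-13582826), vimentin, the intermediate filament of radial glia, at 3041 and 3325 CPM in COP1 KO members and 1008 and 1533 CPM in HET members (log2 change 1.297 ± 0.19, SE; adjusted p = 0.0485). It was also higher in COP1 KO Olig-only cells, at 2679 and 2393 CPM against 1245 and 1449.8 CPM in HET, where 0.363% of genes passed. With the members at or above 0.5% neuronal counts left out, 0 genes (0%) passed in edgeR, with 485 of 3774 at an unadjusted p under 0.05, and Vim stood at 1.23 (adjusted p = 0.0749). DESeq2 passed 38 genes (0.916%), and the fit at 2000 UMIs per cell passed 14 (1.15%), of which 6 were shared with the 14 named first.

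Genes of neurons were among those that fell, and single barcodes held a large share of their HET counts. Stmn2, a microtubule regulator of growing axons, had 158 and 108 CPM in COP1 KO members and 686 and 467 CPM in HET members (log2 change -2.15 ± 0.30, adjusted p = 0.0427), and 82.4% and 72% of the HET counts came from the single deep barcode of each library. Without the members rich in neuronal counts its change was 0.16 (adjusted p = 0.932). The long non-coding RNA Meg3 had 207 and 132 CPM in COP1 KO and 2474 and 1159 CPM in HET (-3.47 ± 0.41, adjusted p = 0.0298), with 84.2% and 75% of the HET counts in those barcodes, and its change without the members rich in neuronal counts was -1.301 (adjusted p = 0.26). Snhg11, another non-coding RNA, changed by -5.26 ± 0.46, with 94.1% and 100% of its HET counts in them. Mapt, which encodes tau (-2.31 ± 0.35), Islr2 (-2.65 ± 0.36), Stmn4 (-2.46 ± 0.29) and Pcsk1n (-2.35 ± 0.24) had between 34.04% (Pcsk1n, HET library 2) and 91.7% (Islr2, HET library 1) of their HET counts in the highest barcode of a library. The part of neuronal RNA in these calls beyond those values was not tested.

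For Cdo1, Ostf1 and Gm2a single barcodes held smaller shares of the HET counts. Cdo1, cysteine dioxygenase, had 97.4 and 105 CPM in COP1 KO members and 779.7 and 402 CPM in HET members (log2 change -2.504 ± 0.35, adjusted p = 0.0427), with 20.7% and 13.9% of the HET counts in the highest barcode. Ostf1, an adaptor with an SH3 domain, had 69.02 and 28.7 CPM in COP1 KO and 403 and 299 CPM in HET (-2.96 ± 0.41, adjusted p = 0.0427), with 26.7% and 21.9% in the highest barcode. Gm2a, the activator protein of ganglioside breakdown, had 89.3 and 95.7 CPM in COP1 KO and 471 and 318 CPM in HET (-2.06 ± 0.29, adjusted p = 0.0427), with 20% and 23.5% in the highest barcode. S100a6, a calcium-binding protein, had 4.06 and 9.57 CPM in COP1 KO and 121 and 149.5 CPM in HET, and its change of -4.11 ± 0.54 (adjusted p = 0.0427) rested on 5 COP1 KO counts and 25 HET counts, of which single barcodes held 55.6% and 25%. Without the members rich in neuronal counts all 4 kept their direction, with changes of -2.65, -3.12, -2.24 and -4.18 and adjusted p-values of 0.0541, 0.056, 0.0724 and 0.0541, which no longer passed.

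Lgals1 differed widely and missed the threshold; it is named after its values were seen. Lgals1 (chr15:78926725-78930465) encodes galectin-1, a lectin that binds sugar chains at the cell surface. It had 1527 and 2128 CPM in COP1 KO members and 13.4 and 299 CPM in HET members, and the HET counts were 1 in library 1 and 32 in library 2, of which 21 came from a single barcode. The log2 change was 3.38 ± 0.59 (SE; adjusted p = 0.0695), and 3.397 with every member thinned to 2000 UMIs (adjusted p = 0.00133). At that depth 65.8% and 60.3% of COP1 KO members held a UMI, against 8.33% and 18.8% of HET members. The shares in cells with 2 or more Neurod6 UMIs averaged 3.5% in COP1 KO and 1.25% in HET. Olig-only cells changed by 2.83 (adjusted p = 0.00208), and the test of the difference between members and Olig-only cells gave 0.70 (adjusted p = 0.585).

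Genes around COP1 were mostly too thinly counted to test in members. Rfwd2 itself had 12.2 and 26.3 CPM in COP1 KO members and 26.9 and 28.04 CPM in HET members, and a 3′ tag outside a deleted part does not check a knockout. Of the substrates, Jun had 284 and 225 CPM in COP1 KO and 538 and 636 CPM in HET, lower in COP1 KO without overlap (log2 change -1.25 ± 0.22, SE; adjusted p = 0.0695). Etv4 had 8.12 and 7.18 CPM in COP1 KO and 53.8 and 112 CPM in HET, which is 5 counts in COP1 KO and 16 in HET, and Etv5 had 8.12 and 35.9 CPM in COP1 KO and 121 and 56.1 CPM in HET. Of 15 ERK feedback genes and targets of ETS factors, 14 had a count in members. The mean was higher in COP1 KO for 9 and lower for 5. The libraries did not overlap for 8 of the higher and 4 of the lower genes. Over all 4150 genes tested, 27% were higher and 24% lower without overlap. Of the 7 that passed the filter on low counts, 6 were higher in COP1 KO and 0 passed in edgeR. Over all 4150 genes tested, 2123 were higher. An unadjusted p under 0.05 was reached by 3 of them, against 689 of all 4150 genes tested. Dusp6, a phosphatase of ERK, had 248 and 287 CPM in COP1 KO and 94.1 and 196 CPM in HET (0.80 ± 0.32, adjusted p = 0.281), and Spry1 had 349 and 182 CPM in COP1 KO and 148 and 131 CPM in HET (0.87 ± 0.44, adjusted p = 0.363).

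Transcripts of dividing cells were found in more COP1 KO members at equal depth. At 2000 UMIs per cell a UMI of Mki67, Top2a or Cdk1, markers of proliferating cells, was held by 20 of 38 (52.6%, 35.8 to 69.02) and 26 of 58 (44.8%, 31.7 to 58.5) COP1 KO members, against 2 of 12 (16.7%, 2.09 to 48.4) and 3 of 16 (18.8%, 4.05 to 45.6) HET members, with exact intervals in parentheses. The means were 48.7 ± 5.52% in COP1 KO and 17.7 ± 1.47% in HET (SD, n = 2 each), and 1 COP1 KO member was too shallow to enter. The exact permutation p was 0.333, the smallest possible. Without thinning the libraries overlapped, at 66.7% and 48.3% in COP1 KO and 16.7% and 50% in HET.

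Olig-only cells stood at 54.5 ± 1.18% in COP1 KO and 57.7 ± 1.12% in HET at 2000 UMIs (SD, n = 2 each), and neurons with 2 or more Neurod6 UMIs at 4.03% in COP1 KO and 4.45% in HET. This measure was chosen after seeing the data. The planned measure, 2 or more UMIs of a 51-gene list of the G2 and M phases, was met by 93.5% of COP1 KO members and 84.4% of HET members, with overlap, but also by 71.7% of COP1 KO neurons and 70.7% of HET neurons, which do not divide.

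In the sums, 49 of the 51 genes of the G2 and M phases had a higher mean in COP1 KO members, 39 of them without overlap. Over all 4150 genes tested, 27% were higher in COP1 KO without overlap. Of the 46 tested, 45 were higher with a median log2 change of 1.01, and 0 passed in edgeR. An unadjusted p under 0.05 was reached by 25 of them, against 689 of all 4150 genes tested. Without the members rich in neuronal counts 40 were higher and 6 lower, with a median of 0.66. An unadjusted p under 0.05 was then reached by 11, against 485 of all 3774 genes tested. Top2a, Cdk1 and Mki67 stood at 1.15, 1.91 and 1.22. Top2a, the topoisomerase that untangles chromosomes, had 568 and 665 CPM in COP1 KO and 121 and 289.7 CPM in HET (1.501 ± 0.32, adjusted p = 0.104). Cdk1, the kinase that starts mitosis, had 329 and 426 CPM in COP1 KO and 26.9 and 122 CPM in HET (2.198 ± 0.43, adjusted p = 0.0829), and 84.6% of the counts of HET library 2 came from a single barcode. Mki67 had 183 and 160.4 CPM in COP1 KO and 40.3 and 65.4 CPM in HET (1.600 ± 0.38, adjusted p = 0.106). None of these 3 overlapped between the genotypes. Of the S-phase genes 21 of 29 tested were higher, with a median of 0.36 and 0 passing in edgeR (7 at an unadjusted p under 0.05); without those members the median was 0.21, with 4 at an unadjusted p under 0.05.

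**Figure D4:**
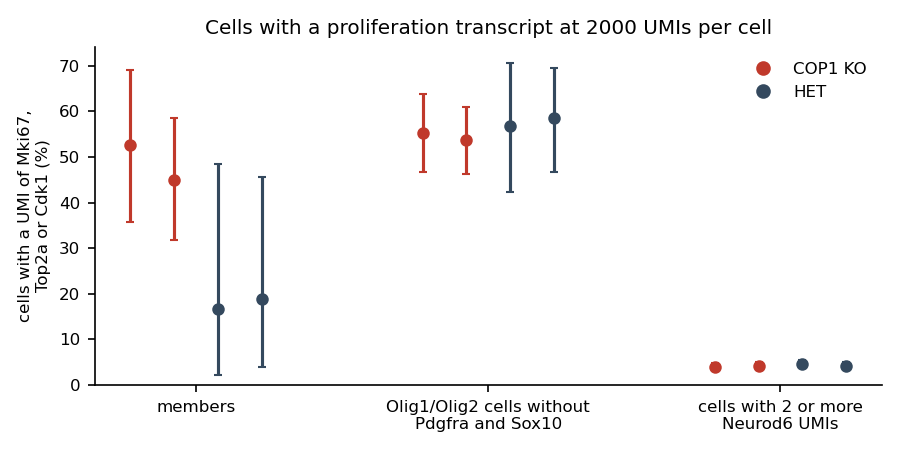
Share of cells with a UMI of Mki67, Top2a or Cdk1 after thinning to 2000 UMIs, for members, Olig-only cells and cells with 2 or more Neurod6 UMIs; points are libraries and bars exact 95% intervals. COP1 KO members (52.6% and 44.8%) lie above HET members (16.7% and 18.8%), while Olig-only cells of both genotypes lie between 53.6% and 58.4%.

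Set against Olig-only cells of the same libraries, members held more of the precursor genes, and less of the astroglial genes and of most regional progenitor genes. Of 6525 genes tested with the library as a block, 477 (7.31%) passed, 248 higher (3.8%) and 229 lower (3.51%) in members. Pdgfra and Sox10, which set the 2 kinds of cells apart by rule, are left out, and genes that accompany them in the same cells are not independent of that choice. Of 20 precursor genes tested 12 rose and 0 fell, with a median log2 change of 1.32 against -0.00 over all genes. Here too counts over the filtered genes are a description, since the filter keeps genes that are high in either kind of cell.

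The genes that rose most include several surface and adhesion proteins. Pcdh15 averaged 125 ± 51.98 CPM in members and 2.31 ± 2.67 CPM in Olig-only cells (SD over 4 libraries), a log2 change of 4.98 ± 0.44 (SE; adjusted p = 6.14e-06). Cntn1 averaged 363 ± 199 CPM in members and 10.5 ± 7.18 CPM in Olig-only cells (4.699 ± 0.38), and Lhfpl3 333 ± 207 CPM in members and 8.32 ± 7.88 CPM in Olig-only cells (4.58 ± 0.43). Cspg4 averaged 76.2 ± 30.04 CPM in members and 5.56 ± 1.79 CPM in Olig-only cells (3.69 ± 0.40). In each of these the lowest member sum stood above the highest Olig-only sum. Serpine2 rose by 2.66, and the others with the largest rises were Plppr5 (4.59), the kinase Stk32a (4.21), the collagen Col19a1 (4.13), Lnx1 (3.75), Ppp1r16b (3.58), Igsf9b (3.17), the glutamate-receptor partner Neto1 (3.02) and the potassium channel Kcnd2 (2.89).

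Among the genes that fell most were genes of astroglia and of regional progenitors. Apoe, the lipid carrier of astroglia, averaged 62.3 ± 23.6 CPM in members and 608 ± 217 CPM in Olig-only cells, a log2 change of -3.298 ± 0.22 (SE; adjusted p = 6.88e-07). Id4, an inhibitor of helix-loop-helix factors, averaged 49.6 ± 38.7 CPM in members and 337 ± 44.6 CPM in Olig-only cells (-3.17 ± 0.33). Zic1, a zinc-finger transcription factor, had 1 count in all members and 311 in Olig-only cells, a ratio of 0.0115 (0.000289 to 0.0643) between their CPM. Fezf2, a factor of deep-layer neurons and their progenitors, had 3 counts in members and 203 in Olig-only cells, a ratio of 0.0526 (0.0108 to 0.156). Pde1b had a ratio of 0.0396 (0.00476 to 0.145) and Ccdc80 of 0.0554 (0.0113 to 0.164). The others were Lpar1 (log2 change -3.83), Fam210b (-3.78), Gm29260 (-3.72), Igfbp5 (-3.25), Ptx3 (-3.25) and Efhd2 (-3.201). Member and Olig-only sums of all genes named in this paragraph stood apart in the 4 libraries.

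**Figure D5:**
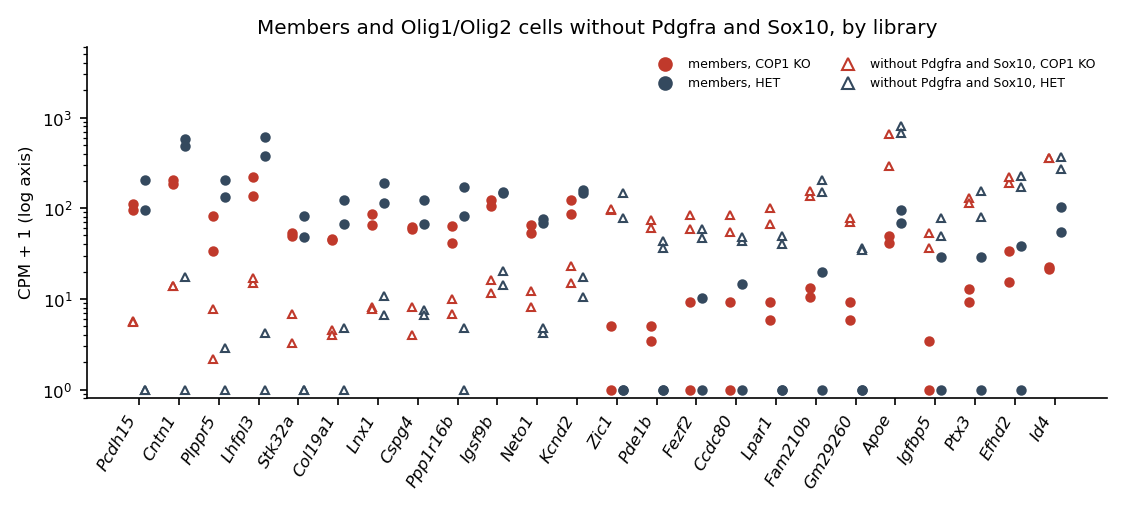
CPM + 1 on a log axis for the genes with the largest rises and falls in members against Olig-only cells; filled circles are members, open triangles Olig-only cells, with COP1 KO left and HET right of each tick. Pcdh15 (125 ± 51.98 CPM in members and 2.31 ± 2.67 CPM in Olig-only cells) is higher in every member sum than in any Olig-only sum, and Apoe (62.3 ± 23.6 CPM in members and 608 ± 217 CPM in Olig-only cells) lower.

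By list, 9 of 14 astrocyte genes fell and 0 rose, with the metallothionein Mt3 at -2.65, the folate enzyme Aldh1l1 at -2.73 and clusterin (Clu) at -2.65. Of 9 ventral progenitor genes tested 8 were lower in members and 1 higher, and 6 fell and 0 rose. Dlx2 averaged 64.1 ± 40.6 CPM in members and 582 ± 360.1 CPM in Olig-only cells (-3.05). Dlx1 (-2.69), Dlx5 (-3.13) and Sp9 (-1.73) fell too. With the barcodes rich in neuronal counts left out, 5 of 8 fell and 1 rose. Nkx2-1, also a ventral progenitor gene, averaged 149.5 CPM in members, 4.14 to 11.2 times the other kept cells of each library. This ratio is a description. All 6 dorsal progenitor genes tested, of 12 in the list, fell, including Lhx2 (-2.01), Pax6 (-2.03), Neurog2 (-2.77) and Emx2 (-2.33). Without a filter, the 12 dorsal genes summed to 353 and 144 CPM in COP1 KO members and 40.3 and 149.5 CPM in HET members. Olig-only cells had 995 and 835 CPM in COP1 KO and 863 and 660 CPM in HET. The ventral list summed to 426 and 467 CPM in COP1 KO members and 766 and 766 CPM in HET members. Olig-only cells had 1003 and 1151 CPM in COP1 KO and 2500 and 2486 CPM in HET. Both sums were thus lower in members than in Olig-only cells of each library.

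Of 15 radial glia genes 8 fell and 0 rose, among them Mfge8 (-1.62), Dbi (-0.91) and Gas1 (-1.25). Of 13 genes of Notch signalling 6 fell and 1 rose, including the receptor Notch2 (-2.601), the target Hes5 (-1.33), the modulator Lfng (-1.03) and the feedback gene Nrarp (-1.17). Among 13 gliogenic factors 6 fell, with Zbtb20 at -1.86 and Nfix at -1.44, and Sox6 rose by 1.28. Of 6 growth factor receptors Erbb4 rose by 2.69, while Fgfr2 (-2.32) and Fgfr1 (-0.76) fell. Of 7 interneuron genes 4 fell, with Dlx6os1 at -1.77, and 1 rose.

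Of 11 genes tested from a list of ERK feedback genes and targets of ETS factors, 4 rose in members and 0 fell. Spry1 averaged 202 ± 100.1 CPM in members and 63.1 ± 51.6 CPM in Olig-only cells (1.79). The others were Dusp6 (1.33), Myc (1.47) and Ccnd1 (0.78). Trib2, a pseudokinase partner of COP1, rose by 1.15, and Jun changed by -0.61. Maturation genes went both ways: of 8 tested 3 rose, Cnp by 2.28, Fyn by 1.11 and Tcf7l2 by 0.97. The gene Lpar1, named above among the largest falls, was the 1 that fell, and the median of the list was 0.14. Of the genes before commitment 6 of 15 fell, among them Ccnd2 (-1.66), Gadd45g (-1.79) and Sox11 (-0.87), and 2 rose. The S-phase genes Cdca7 (-1.46) and Nasp (-0.73) fell, and 0 of 49 genes of the G2 and M phases passed in edgeR. Of these 49, 20 had an unadjusted p under 0.05, against 1140 of all 6525 genes, with a median of -0.48.

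Injury-linked genes moved both ways, with 4 of 16 falling and 2 rising: Mt2 (-2.02), Mt1 (-1.18) and Emp1 (-2.904) fell and S100a10 (1.66) rose. Of 12 immediate early and stress genes tested 7 were higher in members and 5 lower, with a median of 0.18. Btg2 (-1.17), Dusp1 (-0.93) and Jun fell, and 0 rose. With the barcodes rich in neuronal counts left out, 3 rose and 3 fell. At 2000 UMIs per cell 2 of 7 rose and 1 fell. Gap43, a growth-cone protein, averaged 639.9 ± 160.4 CPM in members and 269.6 ± 109 CPM in Olig-only cells (1.27), and Stmn3 rose by 0.97. The hemoglobin genes Hbb-bt (-5.72) and Hbb-bs (-3.98) fell. The erythroid list summed to 4600 and 11492 CPM in COP1 KO Olig-only cells and to 143 and 175 CPM in HET Olig-only cells, and to 223 and 177 CPM in COP1 KO members and 188 and 149.5 CPM in HET members.

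Whether a gene's genotype difference was itself different in members and Olig-only cells was tested as an interaction over 7767 genes. It passed for 111 (1.43%), 41 more positive (0.528%) and 70 more negative (0.901%) in members. Of 51 genes of the G2 and M phases 12 passed, all more positive in members, with Top2a at 2.02 ± 0.32 (SE; adjusted p = 6.71e-05), Cenpe at 2.94 ± 0.48, Cdk1 at 2.42 ± 0.40 and Cenpf at 2.26 ± 0.38. In Olig-only cells Top2a had 757 and 649 CPM in COP1 KO and 1028 and 944 CPM in HET, the opposite order to members. Of 26 precursor genes 5 passed, all more negative in members. They were Luzp2 (-2.93 ± 0.48), Lhfpl3 (-4.71 ± 0.88), C1ql1 (-2.97 ± 0.63), Cspg5 (-1.27 ± 0.27) and Bcan (-1.24 ± 0.28). The change of Lhfpl3 within members, given above, was smaller. Its average in Olig-only cells, also given above, was close to the limit of 3 counts in HET Olig-only cells, 9.73 and 5.64 CPM. Of 9 pan-neuronal genes 6 passed, more negative in members, with a median of -1.42. Without the barcodes rich in neuronal counts 1 of 8 passed, with a median of -0.51, and Stmn2 turned to 0.40 (adjusted p = 0.896). At 2000 UMIs per cell 0 of 7 passed.

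The interaction calls depended on the setting. With the members and Olig-only cells rich in neuronal counts left out, 48 genes (0.638%) passed, among them 7 of the G2 and M phases and 5 precursor genes. At 2000 UMIs per cell 15 genes (0.433%) passed, among them 3 of the G2 and M phases and 2 precursor genes, and in DESeq2 12 (0.154%). Without HET library 2 the count was 303, and without COP1 KO library 2 it was 23.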

How the data were processed

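Single-cell RNA counts were used from 4 libraries of E16.5 cortex, 2 COP1 KO and 2 HET. The authors deposited whole-number UMI counts per gene and barcode, not normalized; the submitters' processing notes name GSNAP and mm10, and no source used here names the counter or the annotation. Of 36528 gene rows, 3065 had a number in place of a name (1.687% of counts). They stayed in the totals that scale CPM, and none of them is named here. The 40 rows whose counts copied another row (1.335% of counts) stayed out of library sizes and tests. Gene positions come from RefSeq on GRCm38.p6, which matched 30956 of 33463 named rows.

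Barcodes with 500 or more genes were kept, and members found by the rule in the report. Members and lists were chosen with earlier results of these data known. UMIs were summed per library and tested with edgeR (4.0.16) quasi-likelihood tests, TMM factors, filterByExpr and Benjamini-Hochberg adjustment at 0.05: COP1 KO against HET in members, members against Olig-only cells with the library as a block, and the interaction over 8 sums, adjusted over all genes fitted. Standard errors are the log2 change divided by the root of F. Shares have exact (Clopper-Pearson) 95% intervals and exact two-sided permutation tests over libraries. Where stated, barcodes were thinned at random to 2000 UMIs. DESeq2 (1.42.0), library totals, no filter, stricter rules, Scrublet (scanpy 1.11.5; its own limit marked 13 barcodes, 0.068%, so a score of 0.25 was used, removing 228 barcodes and 0 members) and leaving out each library were alternatives; leaving out barcodes with 0.5% or more neuronal counts, thinning members before summing, and the measure from Mki67, Top2a and Cdk1 were added after seeing the data. Counts were simulated at the real depths, with a single dispersion and the same gene proportions in every library. In members, 100 of 4150 genes were changed 2-fold and 100 4-fold. The edgeR step called 28% and 92% of these, and 4 unchanged genes. The test against Olig-only cells called 69% and 96%, and 7 unchanged genes, and the interaction 7% and 42%, and 0. The simulation holds no deep neuronal barcodes, so it does not give the power or the false calls of these data. Library pairs shared 183 barcode sequences, 0 of them members. Named genes are those of the precursor, early and maturation lists with 20 or more CPM; for each test up to 12 rising and 12 falling genes with the largest change among those passing, without overlap and with 50 or more CPM; up to 4 passing genes per list; and Rfwd2. Log2 changes are between groups, and levels are not compared between genes. No sequence is printed, and some genes of the lists are counted but not named here.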

Additional observations from a re-analysis of the deposited data

Results flagged for a closer look

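For the genes named here, the COP1 KO against HET difference in members differed from that in Olig-only cells by the interaction test (edgeR, adjusted p under 0.05). Values are the log2 change in members minus that in Olig-only cells. More positive in members were, among genes of cell division, Ccnf (3.83), Cenpe (2.94), Knl1 (2.84), Kif20a (2.56), Mad2l1 (2.43), Kif11 (2.42), Cdk1 (2.42), Sgol2a (2.395), Aurka (2.39), Cenpf (2.26), Top2a (2.02), Rrm1 (1.78) and the cyclin Ccnd2 (1.497). Others were Tnc, a matrix protein (8.44), the RNA-binding protein Fxr1 (2.79) and Tnfaip6 (2.702). Tnc had 78 counts in COP1 KO members and 0 in HET members, at least 7.1-fold higher in COP1 KO against a floor of 3 counts over the HET libraries.

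More negative in members were the precursor genes Lhfpl3 (-4.71), C1ql1 (-2.97), Luzp2 (-2.93) and Cspg5 (-1.27), and Id4 (-2.13). Genes used by neurons were Resp18 (-9.81), Fxyd7 (-7.09), Syt5 (-6.32), Snhg11 (-6.17), Calb1 (-5.45), Syt1 (-5.404), Npas4 (-5.38), Caly (-5.26), Rbfox1 (-3.72), Tmem158 (-3.68), Mef2c (-2.66), Stmn2 (-2.08), Stmn3 (-1.304) and Nsg1 (-1.33). The highest barcode of each HET library held 100% and 100% of the counts of Calb1, 100% and 60% of Syt1 and 91.7% and 40% of Tmem158. For Resp18 it held 37.5% and 40%, and for Rbfox1 50% and 22.2%. Resp18 had 0 counts in COP1 KO members and 13 in HET members, at least 15.9-fold lower in COP1 KO against a floor of 3 counts over the COP1 KO libraries. The hemoglobin genes Hbb-bt (-7.33) and Hbb-bs (-4.79) differed too, and the erythroid list in Olig-only cells summed to 4600 and 11492 CPM in COP1 KO and to 143 and 175 CPM in HET. The fitted values of genes at 0 in a group depend on the prior count. In Olig-only cells the average of Lhfpl3 was close to the limit of 3 counts for HET. With the barcodes rich in neuronal counts left out, 14 of the genes named in this section still passed and 14 did not. A further 1 turned round and 8 were not tested. In DESeq2 5 still passed and 32 did not.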

How the results depend on the processing

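The member share of cells kept its direction under all alternatives run, with ratios of COP1 KO over HET between 2.36 (without COP1 KO library 2) and 3.87 (without COP1 KO library 1). The member share of Olig cells turned round to 0.784 at 2000 UMIs per cell, to 0.932 with 2 or more UMIs of each gene pair and to 0.974 with Sox10 needed; the cause was not tested. The planned cycling share, a ratio of 1.11, turned round to 0.970 without thinning, and leaving out 1 library gave 0.998 (without HET library 1) to 1.25. Genes passing within members numbered 14, against 38 with DESeq2, 41 with library totals, 247 with no filter, 0 without barcodes rich in neuronal counts (485 at an unadjusted p under 0.05) and 0 with 2 or more UMIs of each pair (542), and 70 to 383 with 1 library left out, where the lone library is assumed to vary like the others. Of the 14, all passed with DESeq2 and with library totals, and 6 at 2000 UMIs per cell. Against Olig-only cells 477 passed, against 311 with DESeq2, 814 with no filter and 220 at 2000 UMIs, and 298 to 535 with 1 library left out. The interaction passed 111 genes, against 12 with DESeq2, 48 without barcodes rich in neuronal counts and 15 at 2000 UMIs, and 23 to 303 with 1 library left out. Without those barcodes Stmn2 turned round to 0.16 within members and to 0.40 in the interaction. Library totals moved the median of all genes by less than 0.1. Depth limits the HET side most, with 28 members in all. No paired analysis was possible because the labels number no libraries; the numbers 1 and 2 used here follow the order of deposition and only name the libraries.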
